A study of Mus musculus with 6 samples.

Results

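Caspases are proteases that dismantle a cell during apoptosis, and Bcl2 family proteins decide at the mitochondrial membrane whether that programme starts. The genes described here are 4 caspases (Casp2, Casp6, Casp8 and Casp9) and 4 Bcl2 family members (Bcl2, Bcl2l1, Mcl1 and Bax), chosen by gene symbol, and all 8 were found among the 23412 genes of the normalized count table. They were measured by RNA-seq in undifferentiated mouse embryonic stem cells (mESCs) of strain 129Sv, from the wild type line R1 and the Htt-/- line HN, in which the promoter and exon 1 of the huntingtin gene were deleted. Both lines were grown without feeder cells on gelatin in medium with serum, LIF and inhibitors of FGF receptors, MEK and GSK3. Each line gave 3 libraries, and the replicates of a number share a collection date across the lines, so that the 6 libraries form 3 same-date pairs. Each genotype is represented by 1 cell line, so the deletion and other differences between the lines cannot be told apart, and p-values measure the spread between batches of the same line.

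Apoptosis can start at the mitochondrion or at a death receptor. In the mitochondrial pathway, Bax and its relative Bak1 form pores in the outer membrane, the released cytochrome c joins Apaf1 in the apoptosome, and the apoptosome activates caspase-9. Bcl2, Bcl2l1 (whose long isoform is Bcl-xL) and Mcl1 hold the pore formers in check, and BH3-only proteins oppose these guardians. In the death receptor pathway, Fadd recruits caspase-8, and both routes converge on executioner caspases, caspase-6 among them. Huntingtin is itself a substrate of caspases, caspase-2 and caspase-6 among them. mESCs are known to be primed for apoptosis and to rely on Mcl1 and Bcl2l1 for survival. Because caspases are made as inactive precursors, an mRNA level does not measure their activity.

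The libraries held from 1640391 to 3866717 reads on genes. Htt was lower in every HN library (18.3 to 58.1 normalized counts) than in every R1 library (199 to 257). The stem cell identity of the label was checked on 8 markers, all of which were read in every library: their summed level was 15740 to 17910 at the first and second collection dates and 12130 to 12840 at the third. Markers of other cell types were low, and those of fibroblasts (6 genes), primitive endoderm (5 genes) and neural progenitors (5 genes) were higher at the third date in both lines, at 87.7 to 119 against 24.8 to 60.8, 128 to 151 against 30.3 to 59.6 and 172.5 to 175.5 against 48.1 to 159 in sum. Mesoderm markers (5 genes) summed to 94.4 to 161 at the third date and 80.9 to 264 before. Between the lines, the sum was 80.9 to 169 in R1 and 161 to 264 in HN for mesoderm and 48.1 to 173 in R1 and 144 to 175 in HN for neural markers. In limma's fit with the date as a block, the mesoderm genes Eomes (adjusted p = 8.57e-05) and T (0.0010) and the neural gene Olig2 (1.35e-06) were higher in HN. The fibroblast gene Thy1 (0.00112) and the stem cell gene Zfp42 (6.37e-08) were lower, and the stem cell genes Nanog, Esrrb, Klf4 and Dppa5a were higher (0.0305, 0.00389, 8.96e-04 and 0.0389). The other tested markers did not pass with the block. Among them, Sox1 and Nes were higher in HN and Pax6 and Neurog2 lower (log2 fold changes 0.30, 0.53, -0.44 and -0.41). Olig2 averaged 12.7 normalized counts in R1 and 69.9 in HN. Without the block none of the markers passed, the lowest limma adjusted p being 0.136 for Olig2. Reads were found on 20542 and 20675 genes in the third-date libraries and on 18133 to 19083 genes in the others. The third date thus stood apart from the others in both lines. Of the 8 genes, fold changes without it are given below for Casp8, Casp2, Casp9 and Bcl2.

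None of the 8 genes differed between HN and R1 mESCs in limma's test over 14276 genes, at an adjusted p-value under 0.05 with or without a fold threshold. The log2 fold changes ran from -0.86 (Casp6) to 0.32 (Casp8), with a median of -0.02 against -0.01 over all tested genes. At an unadjusted p-value under 0.05 the number was again 0 of 8, where 0.245% of all tested genes passed the adjusted test and 5.91% the unadjusted p. On the recovered reads it was 0 of 8 by edgeR, where 0.238% of all tested genes passed, and 0 of 6 by DESeq2. DESeq2 gave no adjusted p for Casp6 and Bcl2 and passed 0.785% of all tested genes. In that share, genes without an adjusted p count as not passing. With the collection date as a block, which compares HN with R1 within each date, 9.48% of all tested genes passed the adjusted test and again 0 of the 8. With a fold threshold of 1 on the log2 scale added, 0.911% of all tested genes were called higher and 1.04% lower. The blocked fit of edgeR passed 11.2% of all tested genes and 0 of the 8. That of DESeq2 passed 3.59%, counted in the same way as without the block, and 0 of the 6 genes with an adjusted p. The libraries of the lines overlapped for all 8 genes, where 10.8% of all tested genes showed no overlap (5.23% higher and 5.54% lower in HN). Fewer cells of a type and less RNA per cell cannot be told apart in bulk samples. The median absolute log2 fold change was 0.07 for the 8 genes and 0.22 for all tested genes. The libraries of a line spread more for the 8 genes, with a median SD of 0.58 against 0.37 on the log2 scale. Fold changes are HN minus R1 on the scale of log2(normalized count + 1), which understates the change of genes with few reads.

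**Figure D1:**
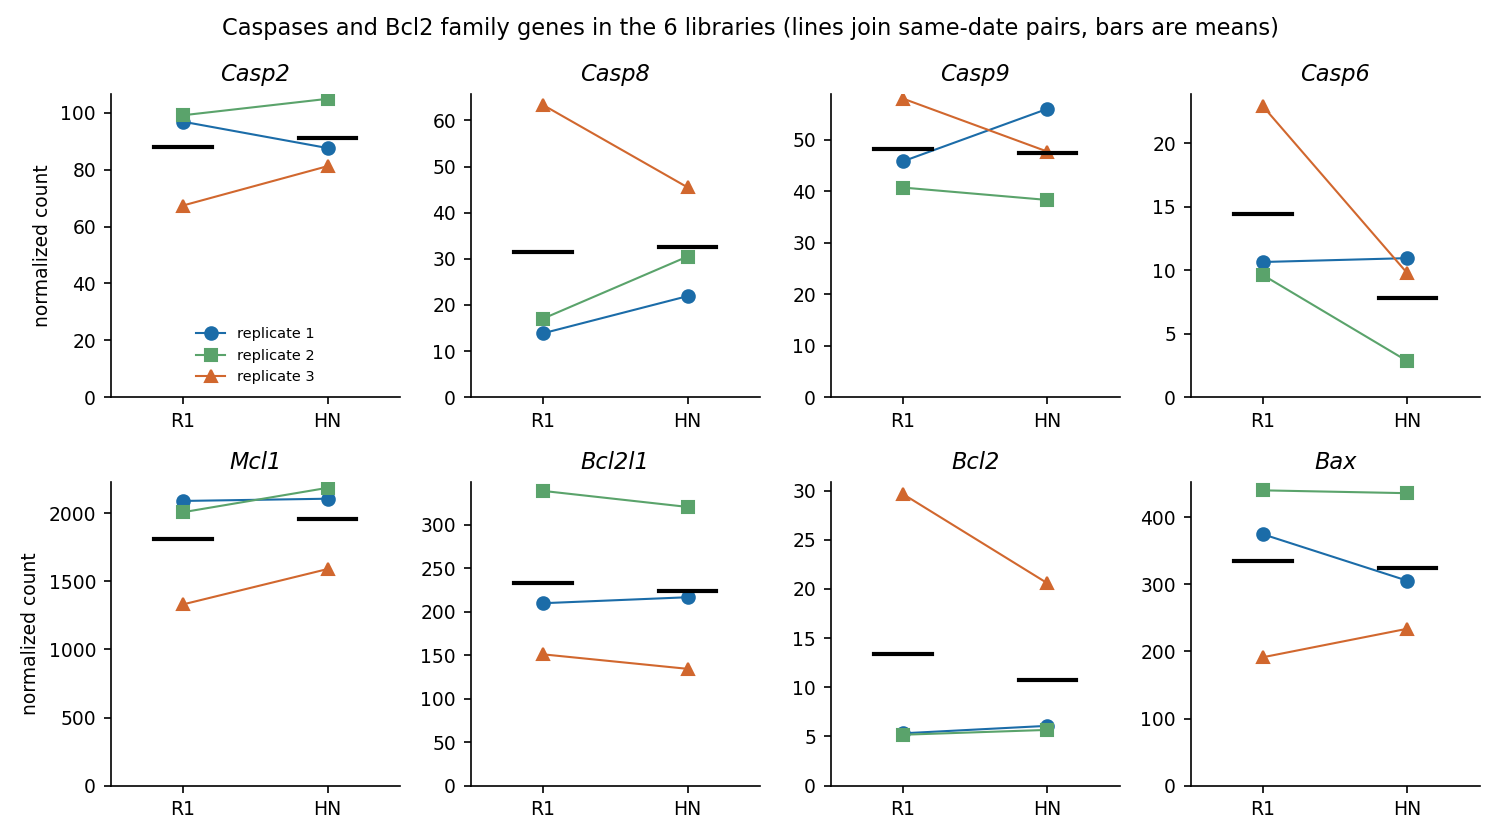
Normalized counts (y axis, from 0) of the 8 genes in R1 and HN mESCs (x axis), 1 point per library, with lines joining the libraries of the same collection date and bars at the mean of each line. R1 and HN overlap for every gene, and replicate 3 lies apart from replicates 1 and 2 for Bcl2, Casp8, Mcl1, Bcl2l1 and Bax.

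Among the initiator caspases, Casp8 encodes the apical protease of the death receptor pathway. The gene (ENSMUSG00000026029.14) occupies chromosome 1 from 58795374 to 58847503, plus strand, in GRCm38 with GENCODE M21. R1 held 13.8, 17.0 and 63.3 normalized counts of it in replicates 1, 2 and 3, and HN held 21.9, 30.5 and 45.5. HN was thus higher than R1 at the first and second dates and lower at the third, and the log2 differences within the pairs were 0.63, 0.81 and -0.47. R1 averaged 31.4 ± 27.7 and HN 32.6 ± 11.9 (SD, n = 3), a log2 fold change of 0.32 (95% confidence interval -0.80 to 1.45, limma adjusted p = 1.0, and 0.555 with the block). Without the third date, a choice made after the data were seen, the log2 fold change was 0.72 (limma adjusted p = 0.745, and 0.185 with the block).

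Casp2 encodes a caspase linked to DNA damage and to abnormal division. The gene (ENSMUSG00000029863.13, plus strand of chromosome 6, 42264985 to 42282508) had 96.9, 99.1 and 67.4 normalized counts in R1 and 87.6, 105 and 81.2 in HN replicates 1, 2 and 3. Its lowest library was the third-date library of each line, and the log2 fold change was 0.07 (95% confidence interval -0.45 to 0.59, limma adjusted p = 1.0, and 0.869 with the block). Casp9 (ENSMUSG00000028914.13, plus strand of chromosome 4, 141793612 to 141815976) encodes the protease activated on the apoptosome. It had 45.8, 40.7 and 58.0 normalized counts in R1 and 56.0, 38.3 and 47.7 in HN. Casp9 was lowest at the second date in both lines. Its log2 fold change was -0.03 (95% confidence interval -0.62 to 0.57, limma adjusted p = 1.0, and 0.966 with the block).

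Casp6 encodes an executioner caspase that cleaves nuclear lamins and huntingtin. The gene (ENSMUSG00000027997.9, plus strand of chromosome 3, 129901425 to 129914103) had few reads, namely 10, 13 and 17 in the R1 libraries and 9, 4 and 9 in the HN libraries. Its normalized counts were 10.6, 9.62 and 22.9 in R1 and 10.95, 2.84 and 9.75 in HN, so that the first pair was level and HN was lower in the other pairs. The log2 fold change of -0.86 was the largest in size of the 8 genes, and its 95% confidence interval reached from -2.24 to 0.51 (limma adjusted p = 1.0). With the block the interval was -1.74 to 0.02 and the adjusted p by limma was 0.244. At this depth a difference of that size was not distinguished from 0.

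Among the guardians, Mcl1 encodes a short-lived inhibitor of Bak1 and Bax. The gene (ENSMUSG00000038612.16, plus strand of chromosome 3, 95658788 to 95663176) stood at 2090, 2007 and 1330 normalized counts in the R1 libraries and at 2106, 2186 and 1590 in the HN libraries. Of the 8 genes it alone was higher in HN in all 3 pairs, by 0.01, 0.12 and 0.26 on the log2 scale, where 20.3% of all tested genes were higher in all pairs, 21.1% lower and 41.5% either. The log2 fold change was 0.13 (95% confidence interval -0.36 to 0.62, limma adjusted p = 1.0, and 0.418 with the block, where the interval was -0.04 to 0.31). Mcl1 had at least 987 reads in each library, and its interval in the blocked fit was the narrowest of the 8 genes.

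Bcl2l1 (ENSMUSG00000007659.18, minus strand of chromosome 2, 152780668 to 152831728) had 210, 339 and 151 normalized counts in R1 and 217, 320 and 134 in HN replicates 1, 2 and 3. The lines followed each other from date to date and differed by 0.05, -0.08 and -0.17 on the log2 scale within the pairs. The log2 fold change was -0.07, with a 95% confidence interval from -0.81 to 0.68 without the block and from -0.31 to 0.17 with it (limma adjusted p = 1.0 and 0.812). The counts do not separate the long isoform of Bcl2l1, which protects the cell, from the short isoform, which promotes death.

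Bcl2, the founding member of the family, was read at the edge of detection. The gene (ENSMUSG00000057329.7, minus strand of chromosome 1, 106538178 to 106714274) had 5, 7 and 22 reads in R1 and 5, 8 and 19 in HN replicates 1, 2 and 3. Its normalized counts were 5.32, 5.18 and 29.7 in R1 and 6.08, 5.67 and 20.6 in HN. The third-date library exceeded the other libraries of its line by 2.29 (R1) and 1.65 (HN) on the log2 scale, against a log2 fold change between the lines of -0.08 (95% confidence interval -1.73 to 1.57, limma adjusted p = 1.0, and 0.952 with the block). Of its exon sequence, 6.09% overlaps an antisense gene, D630008O14Rik, and the setting of strand in the counting is not given in the sources used here.

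Bax, the pore former, is ENSMUSG00000003873.11 (minus strand of chromosome 7, 45461697 to 45466898). It had 375, 440 and 191 normalized counts in R1 and 305, 436 and 234 in HN replicates 1, 2 and 3. HN was lower at the first date, level at the second and higher at the third, and R1 averaged 335 ± 129 against 325 ± 102 in HN (SD, n = 3). The log2 fold change was -0.01, with a 95% confidence interval from -0.69 to 0.68 without the block and from -0.24 to 0.22 with it (limma adjusted p = 1.0 and 0.986). Of its exon bases, 12.2% are shared with Gm45808, a gene on the same strand, so that part of its reads is uncertain.

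The balance of guardian and pore former was also compared within each library, where the size factor cancels. The log2 ratio of Mcl1 to Bax averaged 2.48 ± 0.30 in R1 libraries against 2.62 ± 0.26 in HN libraries (SD, n = 3), and that of Bcl2l1 to Bax averaged -0.52 ± 0.28 against -0.58 ± 0.19. The HN minus R1 difference was 0.14 for Mcl1 to Bax (exact two-sided permutation p = 0.7) and -0.06 for Bcl2l1 to Bax (exact p = 0.6), where 3 libraries against 3 cannot give a p below 0.1. The permutation takes no account of the same-date pairs. Within the pairs the differences were 0.31, 0.14 and -0.03 for Mcl1 to Bax and 0.34, -0.07 and -0.46 for Bcl2l1 to Bax. Between the lines, Bcl2 to Bax differed by -0.07 (exact p = 0.9) and Mcl1 to Bcl2l1 by 0.20 (exact p = 0.6). These ratios are not per length and compare the lines only.

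**Figure D2:**
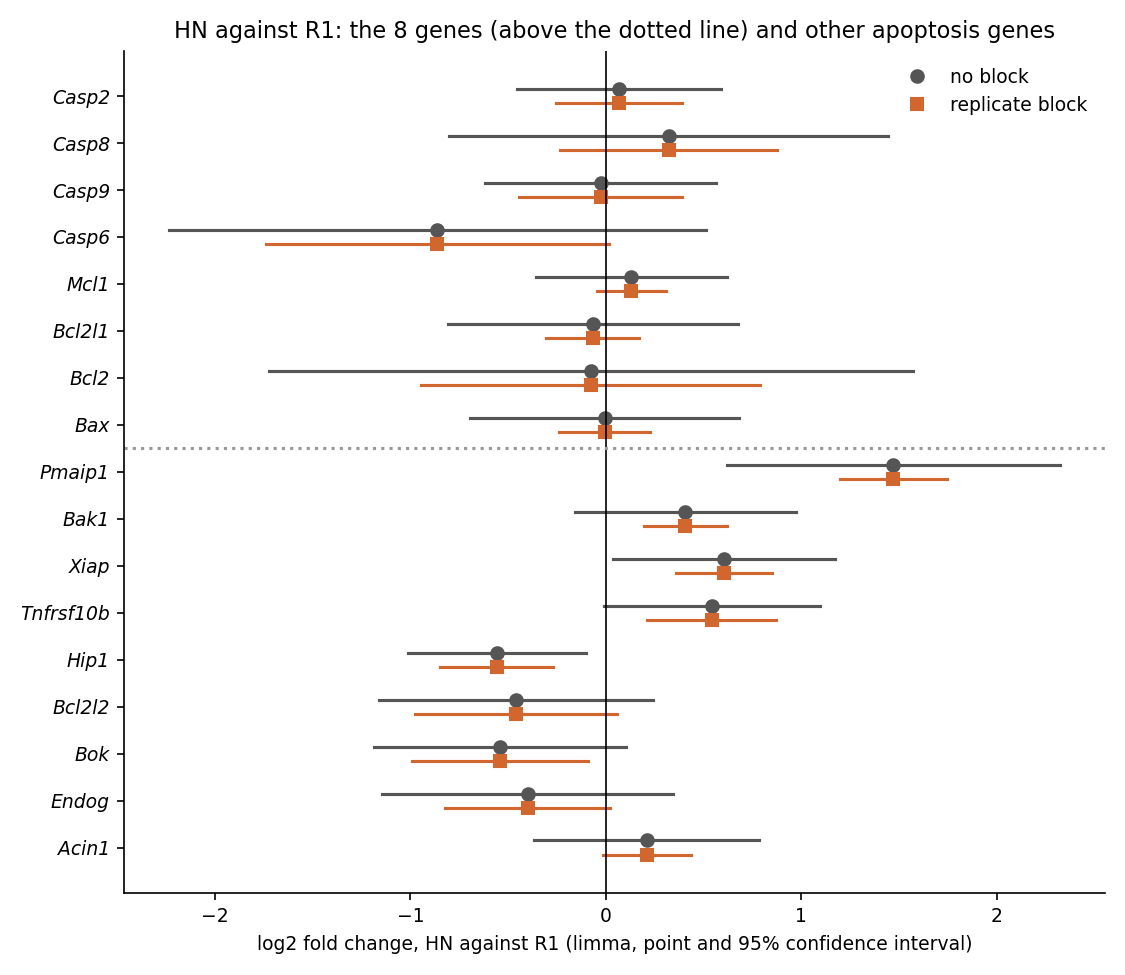
Log2 fold change between HN and R1 (x axis) of the 8 genes and of 9 other apoptosis genes (y axis), with 95% confidence intervals from limma without a block (grey circles) and with the replicate block (orange squares). The intervals of all 8 genes include 0 in both fits, whereas those of Pmaip1, Xiap and Hip1 do not include 0 in either fit. The intervals are not adjusted for the number of genes, and without the block limma's adjusted p for these 3 was 0.333, 0.797 and 0.676. The 9 other genes were chosen from these data for passing or for the largest fold change of a role, so the contrast with the 8 is not a test.

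Per kilobase of annotated exon, the levels of the 8 genes spanned a wide range. The median over the 6 libraries was 599 normalized counts per kilobase for Mcl1, 216 for Bax, 46.5 for Bcl2l1, 13.1 for Casp2, 9.05 for Casp8, 8.99 for Casp9, 1.83 for Casp6 and 0.642 for Bcl2. The ranges over the libraries did not overlap between Mcl1 and Bax, Bax and Bcl2l1, Bcl2l1 and Casp2, or Casp9 and Casp6. Casp2, Casp8 and Casp9 overlapped with their neighbours in this order, as did Casp6 with Bcl2. With the length of the longest transcript in place of all exons, Casp9 came before Casp8 and the order of the 8 was otherwise kept. Among 46 tested apoptosis genes, Mcl1 had rank 1, Bax rank 3, Bcl2l1 rank 10, Casp2 rank 29 and Bcl2 rank 46. By the longest transcript Mcl1 had rank 2, Bcl2l1 rank 6 with a median of 83.0 per kilobase and Casp2 rank 21 with a median of 26.1, while Bax and Bcl2 kept their ranks. Bcl2 lay between 0.566 and 3.24 normalized counts per kilobase and Mcl1 between 389 and 640. The annotation behind the authors' counts is not given in the sources used here, so the lengths are approximate.

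**Figure D3:**
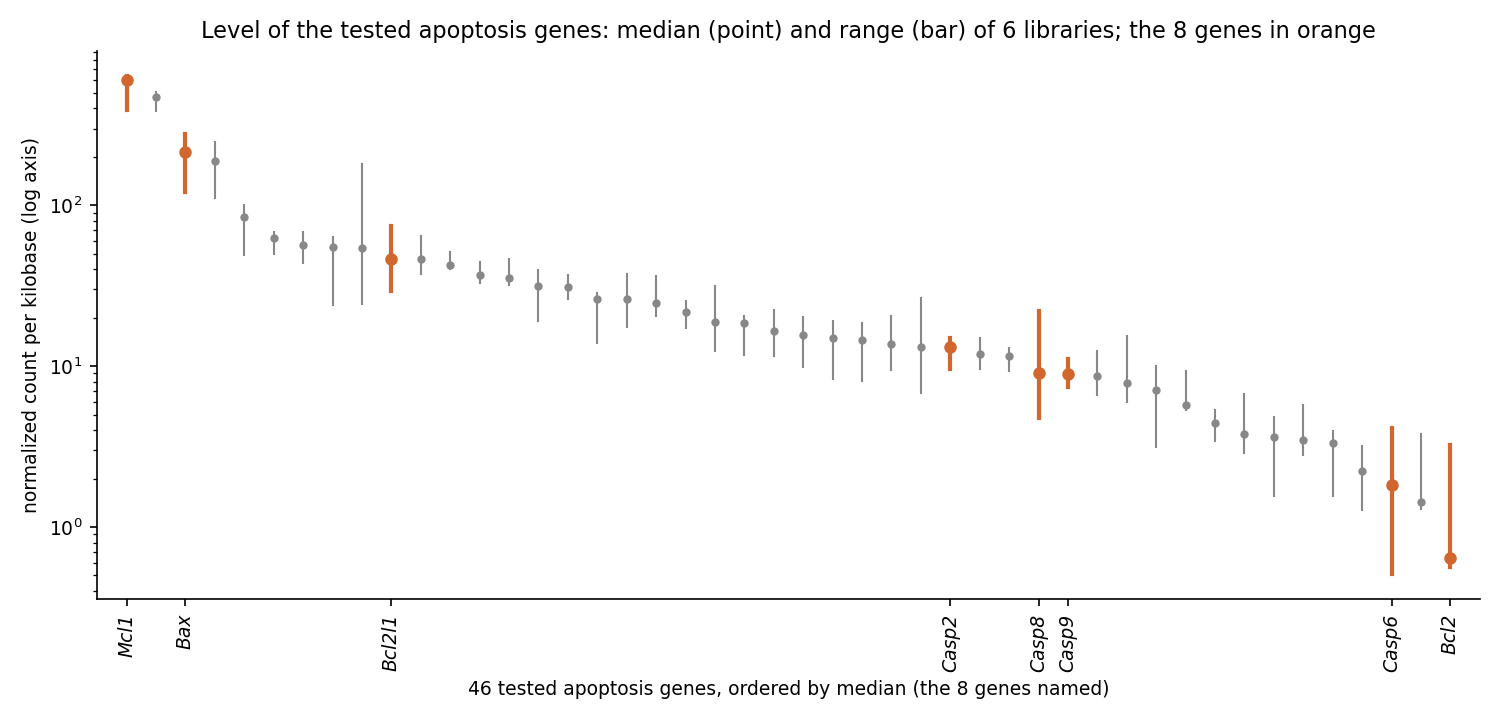
Normalized count per kilobase of exon (y axis, log scale) of the 46 tested apoptosis genes (x axis), ordered by their median, with the median as a point and the range of the 6 libraries as a bar. Orange and a name on the axis mark the 8 genes, which spread from the first place (Mcl1) to the last (Bcl2).

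The levels of the 8 genes were also compared between collection dates. Bcl2l1, Bax, Mcl1 and Casp2 were lower in both third-date libraries than in the other 4, where 20.9% of all tested genes were lower, and Casp8 and Bcl2 were higher, where 21.3% were, so that 6 of the 8 genes had the third date apart, where 42.2% of all tested genes did. The third date minus the mean of the others was -0.89 for Bcl2l1, -0.86 for Bax, -0.53 for Mcl1, -0.38 for Casp2, 1.38 for Casp8 and 1.97 for Bcl2 on the log2 scale. In an F test over the 3 dates in limma's blocked fit, added after the data were seen, 5 of the 8 genes passed. The adjusted p was 5.07e-07 for Bcl2l1, 2.52e-06 for Bax, 1.36e-04 for Mcl1, 8.45e-04 for Casp8 and 0.00281 for Bcl2, and edgeR gave the same 5. Casp2 (limma adjusted p = 0.117), Casp6 (0.093) and Casp9 (0.31) did not pass. The F test asks whether any date differs and does not single out that of replicate 3. The mean log2 values of replicates 1, 2 and 3 were 7.74, 8.37 and 7.16 for Bcl2l1 and 8.41, 8.78 and 7.73 for Bax. They were 11.04, 11.03 and 10.51 for Mcl1, 4.20, 4.57 and 5.77 for Casp8 and 2.743, 2.683 and 4.685 for Bcl2. Bcl2l1 and Bax also rose from replicate 1 to replicate 2 in both lines, so their p does not measure replicate 3 alone. When single libraries were left out, the outcome for Casp6 depended on which library it was, unlike that for Casp2 and Casp9. Since 46% of all tested genes passed the same test (47.9% by edgeR), the share of the 8 genes is near the background. With each library left out in turn, Bcl2l1, Bax and Mcl1 passed in all 6 fits and Casp8 and Bcl2 in 5, the exception being without R1 replicate 3, where limma's adjusted p was 0.167 for Casp8 and 0.165 for Bcl2.

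The guardians Bcl2l1 and Mcl1 were thus lower at the third date together with Bax, which promotes death, while the guardian Bcl2 was higher. The direction also followed the level per kilobase. Mcl1, Bax, Bcl2l1 and Casp2, lower at that date, had ranks 1 to 4 of the 8 genes. Casp8, Casp9, Casp6 and Bcl2, at ranks 5 to 8, had a higher mean there, and Bcl2 had at most 22 reads in a library. Whether the direction goes with level or with role was not tested. The summed levels of stem cell, fibroblast, primitive endoderm and neural markers and the number of genes with reads, given above, moved with the same date, and their part in the result was not tested.

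**Figure D4:**
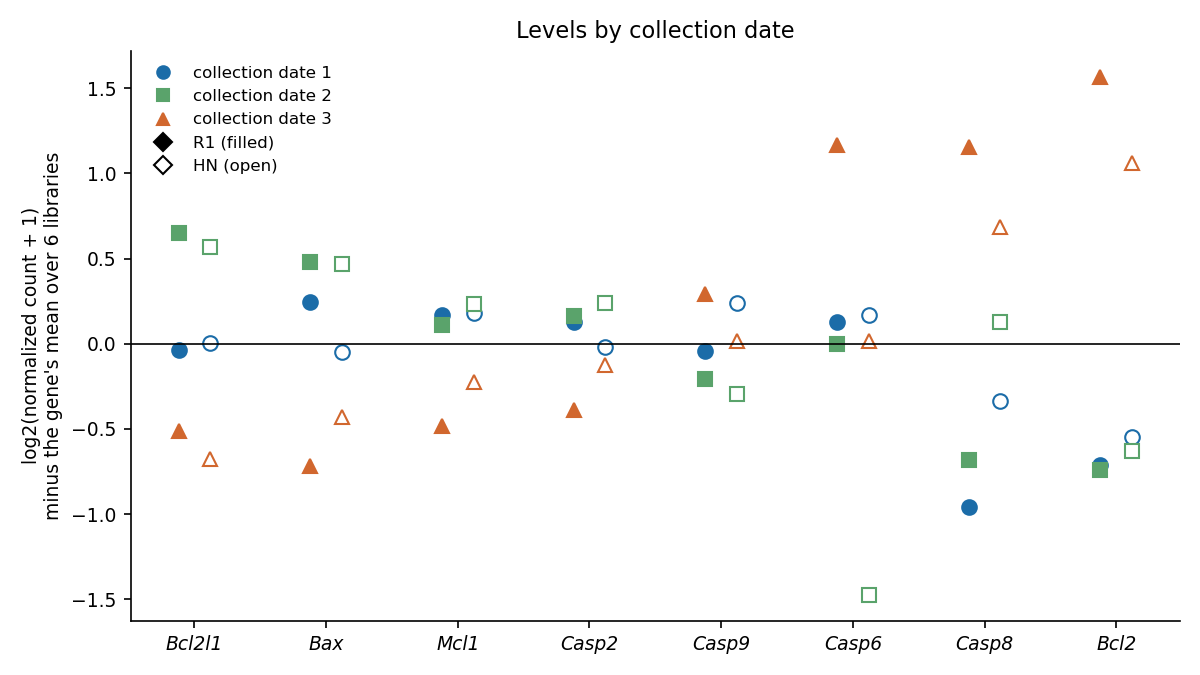
Log2(normalized count + 1) of each gene minus its mean over the 6 libraries (y axis), for the 8 genes (x axis), with collection dates by colour and shape, R1 filled and HN open. The third date lies lowest for Bcl2l1, Bax, Mcl1 and Casp2 and highest for Casp8 and Bcl2 in both lines, while filled and open symbols of a date lie close together for Bcl2l1.

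The promoters of 4 of the genes that moved with the date are shown, Bcl2 and Casp8 (higher at the third date) and Bax and Mcl1 (lower), as the 250 bases before the RefSeq start in GRCm38.p6, 5′ to 3′ on the strand of the gene. RefSeq windows were found for all 8 genes. Capitals mark the GC box GGGCGG, bound by Sp family factors, and the E-box CACGTG, bound by Myc and related factors, on either strand.
Bcl2, chr1:106714291-106714540, minus strand: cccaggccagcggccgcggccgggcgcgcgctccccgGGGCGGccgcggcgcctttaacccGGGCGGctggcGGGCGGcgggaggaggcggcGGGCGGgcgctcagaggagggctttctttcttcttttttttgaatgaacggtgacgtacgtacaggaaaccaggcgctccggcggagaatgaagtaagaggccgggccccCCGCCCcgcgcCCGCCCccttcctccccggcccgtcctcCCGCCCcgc
Casp8, chr1:58802252-58802501, plus strand: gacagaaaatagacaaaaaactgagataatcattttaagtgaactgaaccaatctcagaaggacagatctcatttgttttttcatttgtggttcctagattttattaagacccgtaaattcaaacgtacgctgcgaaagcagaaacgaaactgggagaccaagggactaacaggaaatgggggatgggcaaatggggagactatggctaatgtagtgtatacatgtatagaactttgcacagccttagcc
Bax, chr7:45466899-45467148, minus strand: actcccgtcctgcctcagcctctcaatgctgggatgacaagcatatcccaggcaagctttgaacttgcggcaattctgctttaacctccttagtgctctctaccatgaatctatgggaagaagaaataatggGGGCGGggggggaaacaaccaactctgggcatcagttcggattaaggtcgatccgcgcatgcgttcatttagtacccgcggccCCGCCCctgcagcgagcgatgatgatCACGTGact
Mcl1, chr3:95658471-95658720, plus strand: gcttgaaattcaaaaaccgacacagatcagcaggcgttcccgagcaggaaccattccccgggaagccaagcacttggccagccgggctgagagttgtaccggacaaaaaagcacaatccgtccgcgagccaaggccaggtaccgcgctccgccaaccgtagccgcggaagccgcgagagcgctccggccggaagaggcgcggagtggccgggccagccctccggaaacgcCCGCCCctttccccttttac

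The Bcl2 window held 36 CpG dinucleotides, more than 97.4% of the 32851 promoter windows in the RefSeq table, and 7 GC boxes. The Mcl1 window held 26 CpGs and 1 GC box, and that of Bax held 14 CpGs, 2 GC boxes and 1 E-box. The windows of Bcl2l1, also lower at the third date but not shown, held 0, 11 and 12 CpGs, no GC box and no E-box. The Casp8 window, at a start that lies within the GENCODE gene, held 5 CpGs and neither motif. Of all windows, 32.7% held a GC box and 6.02% the E-box, and the TATA box TATAAA, found in 12.4%, was in none of the windows of the 8 genes. Bcl2 and Casp8, both higher at the third date, thus differed in CpG content, since the Casp8 window lay below the median of 6 CpGs over all windows. A match is a description of the letters and not of binding.

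The other apoptosis genes put the 8 in context. Of 53 listed genes, 52 were in the table and 38 passed the filter on low values. By limma alone 0 of the 38 passed (3 at an unadjusted p-value under 0.05, and 1 adjusted by DESeq2), and with the block 5 passed, or 4 higher and 1 lower, where 5.46% and 4.02% of all tested genes did. The log2 fold changes of the 38 ran from -0.73 (the BH3-only gene Bik) to 1.47 (Pmaip1) with a median of -0.05. The lines did not overlap for 4 of the 38 genes, Pmaip1 and the adaptor Fadd with HN higher and Hip1 and the adaptor Tradd with HN lower, where 10.8% of all tested genes did not overlap.

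Pmaip1, whose product Noxa is a BH3-only protein that binds Mcl1, showed the largest difference of the list. It had 143, 88.8 and 66.0 normalized counts in R1 and 496, 238 and 154 in HN replicates 1, 2 and 3. All HN libraries lay above all R1 libraries, and the log2 differences within the pairs were 1.79, 1.41 and 1.21. The log2 fold change was 1.47 (95% confidence interval 0.62 to 2.32). By limma the adjusted p was 0.333, and 4.78e-10 with the block, which passes, and on the recovered reads it was 0.0125 by DESeq2 and 0.325 by edgeR without the block. Without HN replicate 3, limma gave a log2 fold change of 1.86 and an adjusted p of 0.0329. Pmaip1 did not pass in limma when any other library was omitted instead. The smallest of these estimates was 1.01, without HN replicate 1, the library with the highest count of Pmaip1. Mcl1, its partner, differed by 0.13 on the same scale.

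The other genes that passed with the block in limma act at different steps, and of them only Xiap also passed in DESeq2 with the block. Bak1, the relative of Bax, had 402, 507 and 266 normalized counts in R1 and 593, 556 and 383 in HN, a log2 fold change of 0.41 (limma adjusted p = 1.0, 0.00915 with the block, and 0.0799 by DESeq2 with the block). Xiap, which inhibits caspase-9 and some other caspases directly, had 180, 177 and 117 in R1 and 297, 263 and 169 in HN. Its log2 fold change was 0.60 (limma adjusted p = 0.797, 7.34e-04 with the block, and 0.0165 by DESeq2 with the block). Tnfrsf10b, the mouse TRAIL death receptor upstream of caspase-8, had 88.4, 64.4 and 53.9 in R1 and 110, 106 and 82.3 in HN, a log2 fold change of 0.54 (limma adjusted p = 0.87, 0.0285 with the block, and 0.286 by DESeq2 with the block). These 3 genes were higher in HN in every pair, and each overlapped between the lines. Hip1, a huntingtin-interacting protein linked to caspase-8, had 135, 160 and 125 in R1 and 99.8, 98.5 and 85.6 in HN without overlap, a log2 fold change of -0.56 (limma adjusted p = 0.676, 0.00837 with the block, and 0.127 by DESeq2 with the block). EdgeR with the block passed all 4. The markers that differed between the lines moved with these genes, and their part in the result was not tested.

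The other listed genes passed in neither fit of limma. Apaf1, with a log2 fold change of 0.35, passed by edgeR with the block (adjusted p = 0.0333). It did not pass by limma (0.0588) or DESeq2 (0.302) with the block. In the roles not yet named, or with another leading gene, the largest log2 fold changes were -0.46 for the guardian Bcl2l2, -0.54 for the Bax relative Bok, -0.40 for the mitochondrial nuclease Endog and 0.21 for Acin1, a factor of chromatin condensation. Of the 38 genes, 13 passed limma's F test over the dates, where 46% of all tested genes did.

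The tested gene whose pattern over the 6 libraries was most like each of the 8 was found by Pearson's correlation of log2 values. It was Tpx2 for Casp2, Ano2 for Casp8, Pde10a for Casp9, Ttc9b for Casp6, Col1a1 for Bcl2, Jarid2 for Bcl2l1, Slx1b for Mcl1 and Cdca4 for Bax, with r from 0.985 to 0.999. Between 153 (Casp9) and 1040 (Bax) genes had r above 0.9, so that many other genes followed each pattern closely. All points share the libraries and their dates. Bcl2 and Bax ran against each other with r = -0.94 over the same libraries, and Bax and Bcl2l1 ran together with r = 0.92.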

How the data were processed

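RNA-seq of 3 R1 and 3 HN libraries was analysed. Per the methods, STAR placed the reads on GRCm38 (mm10), Picard took out PCR duplicates and HTSeq counted what fell on exons. The authors then divided by DESeq2 size factors, and the deposited table holds this signal for each gene. Versions and the gene annotation are not given in the sources used here. Whole reads were recovered in 100% of values (tolerance 0.01), on which edgeR passed 34 genes, and unused columns numbered 0. Intervals cover the spread between libraries, and reads without molecular identifiers need not be independent molecules.

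Values were compared as log2(value + 1) with limma 3.58.1 (variance trend, R 4.3.3) for genes with a mean of at least 5. p-values were Benjamini-Hochberg adjusted over all 14276 genes. Genes called have an adjusted p under 0.05 and a log2 fold change above 1 in size. The main fit has no block; the methods of the study state no design formula. The replicate number marks the collection date in the labels, and deviations of same-date libraries were correlated across genes at 0.25, 0.688 and 0.768. The blocked value therefore stands beside the line comparison of each of the 8 genes. Alternatives were edgeR 4.0.16 and DESeq2 1.42.0 on recovered reads, pseudocounts, filters, scalings and omitted libraries. The scripts were tested on simulated data.

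The 8 genes, the lists and the tests were chosen with earlier results of these data known. Named beside the 8 were list genes that passed with or without the block and the largest fold change of each role, and for each of the 8 the most correlated gene. Bik, Fadd, Tradd and Apaf1 were named after their values were seen. Overlaps with other genes were taken from GENCODE M21.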

Additional observations from a re-analysis of the deposited data

How the results depend on the processing

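In none of the alternatives did any of the 8 genes pass the adjusted test (limma, edgeR or DESeq2), and the lowest adjusted p was 0.185. DESeq2 gave no adjusted p for Casp6 and Bcl2, with or without the block. Over all tested genes, 17 were called higher and 18 lower in HN mESCs by limma. With the replicate block the numbers were 130 and 148, with edgeR and the block 132 and 152, with DESeq2 47 and 33, and with DESeq2 and the block 72 and 55. Median centring gave 27 higher, and limma without the variance trend called 0 in each direction (128 higher and 157 lower at an unadjusted p-value below 0.05). With 1 library left out the numbers were 3 to 31 higher and 4 to 26 lower, with 5 and 4 without R1 replicate 1, 3 and 10 without HN replicate 1 and 31 higher without R1 replicate 3. Passing needs the adjusted p alone, without the fold threshold of a call. Of the 38 other apoptosis genes, 0 passed in limma, where 0.245% of all tested genes did, and 5 with the block, where 9.48% did. EdgeR with the block passed 6 (11.2% of all tested genes), DESeq2 1 (0.785%) and DESeq2 with the block 2 (3.59%). Those 2 were Pmaip1 and Xiap, while Bak1, Tnfrsf10b and Hip1 did not pass there. With 1 library left out, 0 to 1 passed (Pmaip1, without HN replicate 3). Without the third date of both lines, chosen after seeing the data, the blocked fit called 187 higher and 193 lower. At the adjusted p alone, 7 of the 38 passed, Bok among them (-0.76, limma adjusted p = 0.0353). The share of all tested genes that passed in the same way was not computed, so the 7 have no background. Leaving out the third date turned the log2 fold changes of Casp2 (-0.031), Casp9 (0.099) and Bcl2 (0.14), with or without the block, and median centring that of Bax (0.0074). With 1 library left out they ranged from -0.11 to 0.16 for Casp2, -0.079 to 0.98 for Casp8, -0.15 to 0.11 for Casp9, -1.16 to -0.34 for Casp6, -0.63 to 0.69 for Bcl2, -0.37 to 0.26 for Bcl2l1, -0.077 to 0.27 for Mcl1, -0.37 to 0.23 for Bax and -0.023 to 0.41 for Acin1. Of the 8 genes, Casp6 alone kept its sign in all of these. The cause was not tested. A filter at a mean of 50 left out Casp8, Casp9, Casp6 and Bcl2. The 95% confidence intervals of Bcl2, Casp6 and Casp8 reached more than 1 log2 unit to either side of the estimate without the block.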

Other observations

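Of the listed apoptosis genes, 14 were in the table but below the filter, with at most 9 reads in a library and a mean normalized count of at most 3.93. They comprise the inflammatory caspases Casp1, Casp4 and Casp12, the epidermal caspase Casp14, the Bcl2 relatives Bcl2a1a, Bcl2a1b, Bcl2a1d and Bcl2l10, the caspase inhibitors Naip1, Naip2, Naip5 and Naip6, and the death receptor Fas with its ligand Fasl. At this depth differences between the lines were not detectable for these genes.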
